A study of Mus musculus with 2 samples.

Results

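The 2 Iroquois gene clusters were described by the H3K27ac peaks that lie along them. A peak of either deposited list was a member when its midpoint fell in a fixed window of the mm9 genome. The IrxA window, drawn for Irx1, Irx2 and Irx4, ran on chromosome 13 from 72000001 to 73600000, and the IrxB window, drawn for Irx3, Irx5 and Irx6, on chromosome 8 from 94100001 to 95300000. Together they held 147 of the 154664 peaks of the series, 70 of 87572 in the atrioventricular canal (AVC) list and 77 of 67092 in the chamber list. IrxA had 59 AVC and 55 chamber peaks, and IrxB had 11 AVC and 22 chamber peaks.

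H3K27ac, the acetylation of lysine 27 on histone H3, was measured by ChIP-seq in sorted mouse heart cells of stage E10.5, with 1 library per tissue. The AVC library came from EGFP-positive cells and the chamber library from Katushka-positive cells. Embryos of both were labelled as FVB/N and as Katushka+ EGFP+; the sequences that drive the 2 reporters, and whether embryos were pooled, are not given in the sources used here. With 1 library per tissue there was no replicate check and no test between tissues, intervals are exact 95% Clopper-Pearson intervals for counting error only, and where a list has no peak none was called, which does not measure a lack of acetylation. Depth is unknown. Gene positions on mm9 were not used here, so the tissue labels were not checked against marker genes and no peak was tied to a single Irx gene.

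Iroquois genes encode homeodomain transcription factors of the TALE class, first known from Drosophila, and in mouse they sit in a pair of clusters whose members lie far apart in gene-poor DNA that holds shared enhancers. In the heart Irx4 is known as a gene of the ventricular myocardium. In mouse, Irx3 acts in the fast ventricular conduction system and Irx5 in the repolarisation gradient of the ventricular wall, while Irx1 and Irx2 are known from the ventricular septum. H3K27ac is found at active promoters and enhancers. The AVC is the segment that forms the atrioventricular node and the valve cushions, and it keeps a slow-conducting muscle that lacks much of the chamber gene programme.

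In the RefSeq annotation of GRCm38.p6 the protein-coding genes of IrxA follow each other as Irx1, Irx2 and Irx4, with none between them, and after Irx4 come Ndufs6, a subunit of respiratory complex I, Mrpl36, a mitochondrial ribosomal protein, and Lpcat1, a phospholipid acyltransferase. In IrxB the order is Irx3, Irx5 and Irx6, again with no protein-coding gene between them. Fto, a demethylase gene whose introns are known to hold Irx3 enhancers, comes before Irx3, and Mmp2, a matrix metalloproteinase, after Irx6. Between the outer genes RefSeq lists 8 long non-coding RNAs and 4 pseudogenes in IrxA and 7 long non-coding RNAs in IrxB, among them Irx3os and Crnde. These lists give order only and were not placed on mm9.

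RefSeq promoters were at hand for 3 of the 6 genes, Irx2, Irx3 and Irx4, and are shown because they are the start sites at which acetylation of the clusters would be looked for. Their positions are those of GRCm38.p6, not mm9, and cannot be compared with the peak positions. Each is the 250 bases before the start in GRCm38.p6, read 5′ to 3′ on the gene's strand, with CpG dinucleotides in capitals.
Irx4, chr13:73260247-73260496 (+ strand): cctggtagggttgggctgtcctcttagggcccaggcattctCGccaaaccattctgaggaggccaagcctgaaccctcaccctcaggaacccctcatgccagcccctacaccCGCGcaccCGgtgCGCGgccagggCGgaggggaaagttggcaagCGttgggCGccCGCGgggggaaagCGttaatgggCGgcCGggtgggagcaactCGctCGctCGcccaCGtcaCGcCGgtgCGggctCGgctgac
Irx2, chr13:72628570-72628819 (+ strand): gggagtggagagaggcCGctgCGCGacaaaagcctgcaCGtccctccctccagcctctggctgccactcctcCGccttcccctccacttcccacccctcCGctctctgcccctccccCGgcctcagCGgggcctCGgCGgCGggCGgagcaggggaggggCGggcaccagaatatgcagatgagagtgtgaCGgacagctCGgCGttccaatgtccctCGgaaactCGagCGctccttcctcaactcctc
Irx3, chr8:91801655-91801904 (- strand): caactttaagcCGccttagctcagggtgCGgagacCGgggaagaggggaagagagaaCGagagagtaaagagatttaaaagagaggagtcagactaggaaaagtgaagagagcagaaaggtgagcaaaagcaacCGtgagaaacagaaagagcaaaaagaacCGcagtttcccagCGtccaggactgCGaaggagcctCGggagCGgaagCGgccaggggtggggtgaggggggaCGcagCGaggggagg
The Irx4 promoter held 22 CpG and 68.8% G or C, the Irx2 promoter 19 CpG and 68.4%, and the Irx3 promoter 13 CpG and 56%. Over 32851 RefSeq promoters of this length the medians were 6 CpG and 52.4%, and 14.8% had at least 22 CpG, 19.7% at least 19 and 31.5% at least 13. On either strand, neither the Iroquois motif ACANNTGT nor the GATA motif AGATAA nor the T-box motif GGTGTGA nor TATAAA was found in any of the 3 windows; 6.31%, 9.99%, 3.33% and 12.4% of all promoters hold these letters. CCAAT occurred once, in the Irx2 promoter, and in 33.8% of all promoters.

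Peaks of both lists were scattered along the IrxA window and were densest toward one end, the chamber peaks more so. The last 300 kb held 22 of the 59 AVC peaks and 33 of the 55 chamber peaks. AVC peaks made up 51.8% of the IrxA peaks (42.2 to 61.2), and 59.2% of all peaks on chromosome 13. With peaks of a list within 1 kb of each other merged, the AVC share of IrxA was 57.6% (47.2 to 67.5). The AVC had 36.9 peaks per Mb in IrxA and 39.7 per Mb over chromosome 13, and the chambers had 34.4 and 27.4. In bases, AVC peaks covered 27322 bp of the window and chamber peaks 18294 bp. AVC peaks were wider, with a median of 463 bp against 296 bp in the chambers. Of the AVC peaks 22 were at least 500 bp wide (37.3%; 41.8% in the whole AVC list), and of the chamber peaks 4 (7.27%; 13.3% in the whole chamber list).

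**Figure D1:**
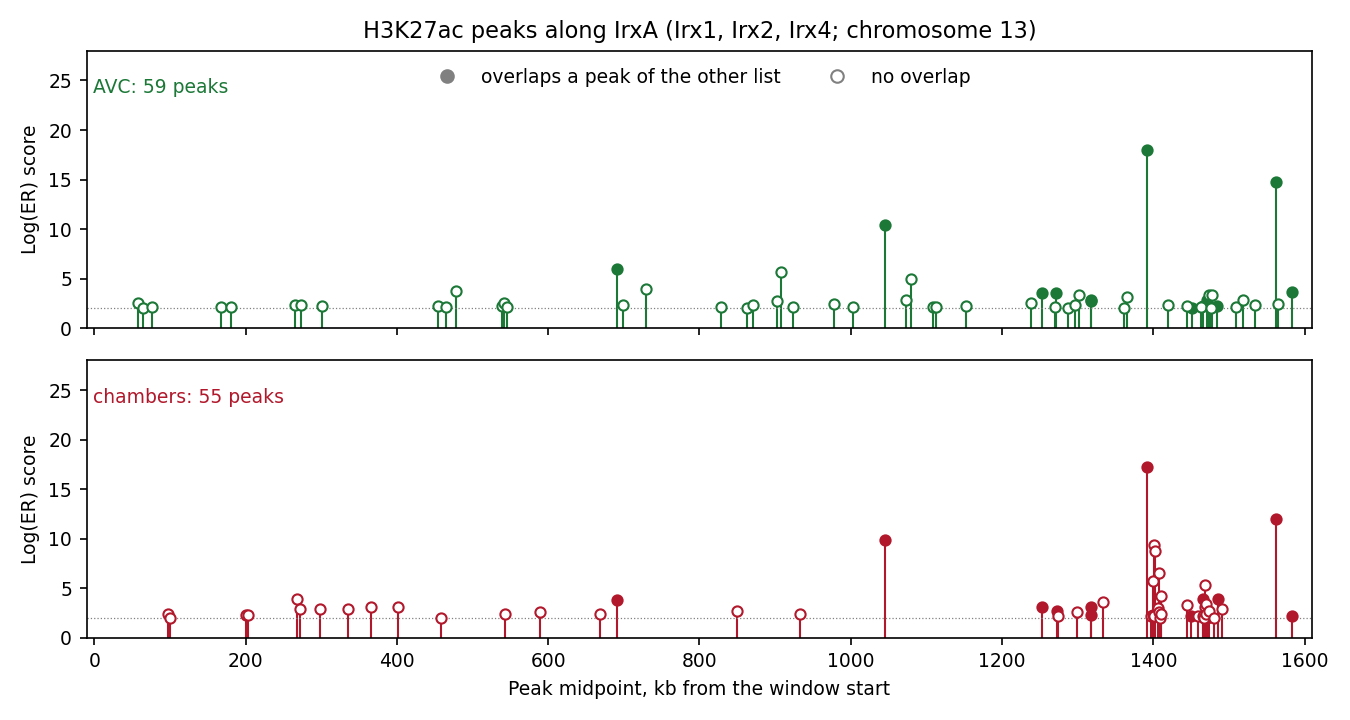
Each stem is a peak of the IrxA window, placed by its midpoint in kb from the window start, with the caller's Log(ER) score as height, AVC above and chambers below; filled points overlap a peak of the other list and the dotted line is the calling threshold of 2. The 59 AVC peaks are spread along the window. Chamber peaks bunch near the right end, where 24 of 55 lie in 1 bin of 100 kb. That bin is also the fullest of the AVC list, with 10 peaks.

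Taken in bins of 100 kb, IrxA showed a single bin with a large chamber excess. AVC peaks outnumbered chamber peaks in 11 of the 16 bins, chamber peaks outnumbered AVC peaks in 4, and 1 bin was level. Of the 21588 windows of the genome with a peak, 59.0% had more AVC and 26.5% more chamber peaks; the AVC list is the longer one. Every IrxA bin held an AVC peak, and 2 held no chamber peak; over the genome 22.0% of 100 kb windows had no AVC peak and 33.4% no chamber peak. The bin from 73.4 to 73.5 Mb held 10 AVC and 24 chamber peaks, an AVC share of 29.4% (15.1 to 47.5). This was the bin with the most peaks in either list, and the one Irx bin that reached 20 peaks. Its interval lay below 50.2%, the AVC share pooled over the 1304 windows of the genome with at least 20 peaks. Of those windows 3.60% lay below in this way and 6.13% above. The interval takes neighbouring peaks as independent, which makes it too narrow, and with bins shifted by 50 kb no Irx bin was set apart.

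The crowded bin also held the wider chamber peaks of high score in IrxA. Of its 24 chamber peaks 4 scored at least 5, all of them 300 bp wide or wider. None of its 10 AVC peaks reached that score. In the whole lists 18.1% of chamber peaks and 9.95% of AVC peaks did. Of those 12137 chamber peaks 9366 were at least 300 bp wide. Covered bases came to 4596 bp in the AVC and 8824 bp in the chambers. Next to it, from 73.3 to 73.4 Mb, the counts were 6 (AVC) and 7 (chambers). The last bin, from 73.5 Mb, held 6 AVC peaks and 2 chamber peaks, the largest AVC excess of the cluster. The bin from 73.2 Mb held 6 AVC and 4 chamber peaks.

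**Figure D2:**
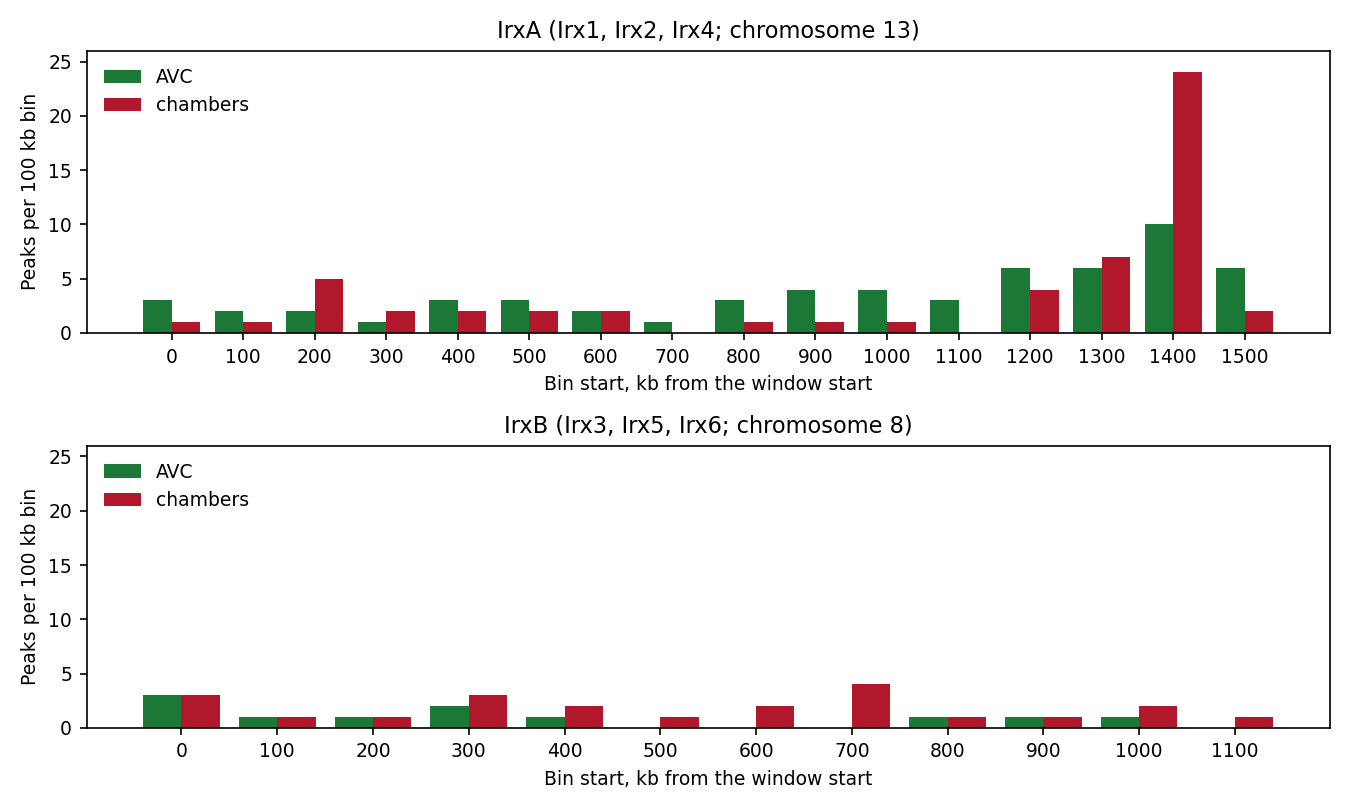
Bars give the number of peaks per 100 kb bin, AVC left and chambers right, along IrxA (top) and IrxB (bottom), with bins named by their start in kb from the window start. The bin at 1400 kb of IrxA stands out with 10 AVC and 24 chamber peaks, and 4 bins of IrxB have chamber peaks and no AVC peak.

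Within that end of IrxA lay a run of 12 chamber peaks with no AVC peak among them. It spanned 13.3 kb, from 73397358 to 73410665, each peak within 5 kb of the next, and 9 of its peaks fell in the bin from 73.4 Mb. The nearest AVC peaks ended 5.93 kb before the run and began 9.08 kb after it. In the chambers the signal values of the run were between 24 and 69, with a median score of 2.81 and a highest of 9.33. Its strongest peaks were at 73400157 to 73400622 (466 bp, signal 69, score 9.33), 73402438 to 73402872 (435 bp, signal 66, score 8.80) and 73407471 to 73408093 (623 bp, signal 53, score 6.55), the last of which was also the widest chamber peak of IrxA. These were the 3 chamber peaks of highest score in IrxA without an AVC overlap. Another peak of the run, at 73399425 to 73399686, had a signal of 48 and a score of 5.70, and 6 of the 12 had scores under 3. The lowest signal called on chromosome 13 was 26 in the AVC list and 24 in the chamber list.

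Over the genome, 2909 runs of at least 4 chamber peaks could be formed in the same way, and 9.21% of them held no AVC peak. Among the 201 runs with 12 or more chamber peaks, the IrxA run was the single one without an AVC peak (0.498%). The spacing of 5 kb, and the count of 12, which is the run's own, were set after the peaks had been seen. At a spacing of 2 kb the run broke up, leaving at most 6 chamber peaks in a row without an AVC peak. At that spacing 19 chamber runs of the genome had 6 or more peaks and no AVC peak, and the longest had 11. At 10 kb the IrxA run joined a narrow peak called in both tissues and was no longer free of AVC peaks. The longest chamber run of the genome without an AVC peak then had 11 peaks. The run was thus the only one of its kind at the 5 kb spacing alone.

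A further run of 9 chamber peaks lay in the same bin, from 73465347 to 73474370, and this one held 3 AVC peaks. Its highest chamber score was 5.37. Here the AVC list had a run of its own, 4 peaks from 73471193 to 73477855 that held 2 chamber peaks, with scores between 2.03 and 3.30. It was the one AVC run of 4 or more peaks in either cluster; over the genome 17.8% of 2853 AVC runs held no chamber peak. AVC peaks were thus called on both sides of the 12-peak run. In the gene order above Irx4 comes last of the Irx genes of IrxA, with Ndufs6, Mrpl36 and Lpcat1 after it. That order was not placed on mm9, and which genes the runs lie at was not determined.

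**Figure D3:**
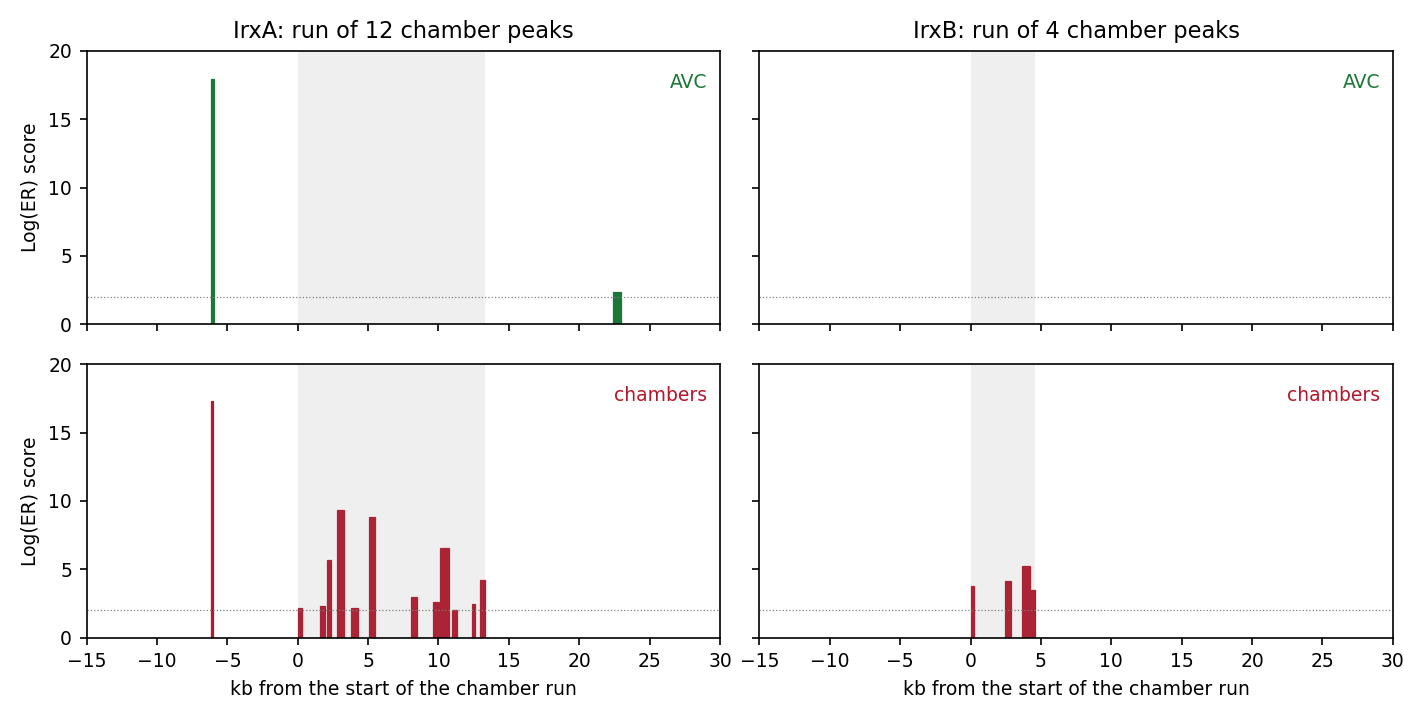
Boxes are peaks drawn to scale, with width in kb from the start of the chamber run and height as Log(ER) score, AVC above and chambers below; grey marks the run of 12 chamber peaks in IrxA (left) and of 4 in IrxB (right). No AVC box falls in either grey span, and in IrxA a narrow peak 5.93 kb before the run stands in both lists.

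Toward the other end, IrxA held more AVC than chamber peaks. The first 1.3 Mb had 37 AVC and 22 chamber peaks, an AVC share of 62.7% (49.1 to 74.96), an interval that includes the 59.2% of chromosome 13. The difference was largest from 72.7 to 73.2 Mb, a stretch picked after the counts had been seen, with 15 AVC and 3 chamber peaks covering 8046 and 717 bp. Its bins held 1, 3, 4, 4 and 3 AVC peaks in order along the chromosome, against 0, 1, 1, 1 and 0 chamber peaks. The strongest AVC peaks of IrxA without a chamber overlap were here, at 72907196 to 72908036 (841 bp, signal 55, score 5.71), at 73079212 to 73080184 (973 bp, signal 50, score 5) and at 72729176 to 72729718 (543 bp, signal 42, score 3.93). The second of these was the widest peak of either list in the clusters. Chamber peaks led in the bins from 72.2 Mb, with 2 AVC and 5 chamber peaks, and from 72.3 Mb, with 1 and 2.

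IrxB was sparsely marked, more so in the AVC. The AVC had 9.17 peaks per Mb, against 35.2 per Mb over chromosome 8, and the chambers had 18.3 against 25.7. AVC peaks made up 33.3% of the IrxB peaks (18.0 to 51.8), and 57.8% of all peaks on chromosome 8. They covered 3267 bp, and chamber peaks covered 6640 bp. No bin had more AVC than chamber peaks: 7 of 12 had more chamber peaks and 5 were level, set against the 59.0% of windows of the genome with more AVC and 26.5% with more chamber peaks. In 4 bins there was no AVC peak and in 0 no chamber peak, set against the 22.0% and 33.4% of windows over the genome given above. The intervals of the AVC share in IrxA and IrxB overlapped, and the difference between the clusters was not tested.

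**Figure D4:**
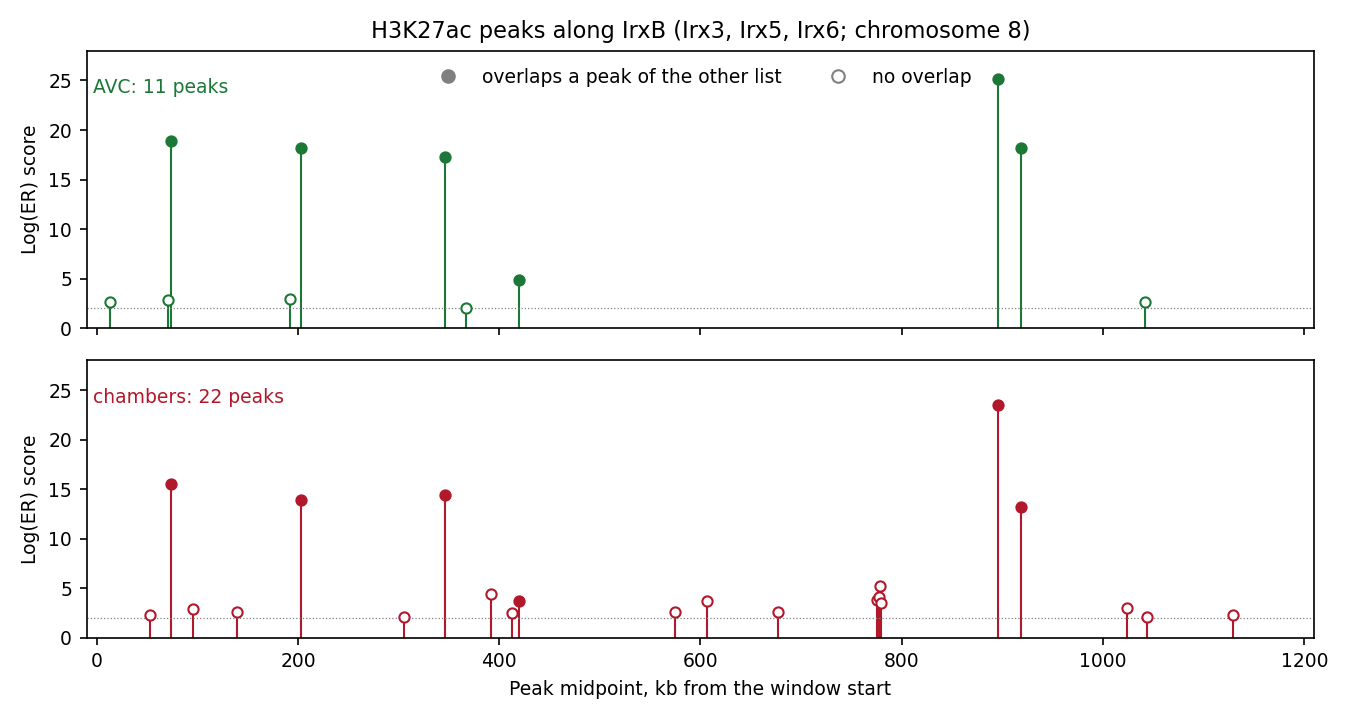
Stems give the peaks of the IrxB window as in the map of IrxA, with AVC above and chambers below. The same 5 tall loci stand in both lists, and in the middle 300 kb the AVC panel has no peak where the chamber panel has 7.

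A stretch without AVC peaks, picked after the counts had been seen, lay in the middle of IrxB. The 300 kb from 94.6 Mb held no AVC peak and 7 chamber peaks (1, 2 and 4 in successive bins) covering 2620 bp. The largest chamber excess was in the bin from 94.8 Mb, whose 4 peaks formed a run of 4.56 kb from 94874780 to 94879337. Their scores were between 3.51 and 5.28 and their signal values between 34 and 45. The strongest, at 94878429 to 94878998, was 570 bp wide with a signal of 45 and a score of 5.28, and was the widest chamber peak of IrxB. The peak at 94877257 to 94877630 had a signal of 38 and a score of 4.14. The nearest AVC peak ended 355 kb before the run, and the next began 116 kb after it. At a spacing of 2 kb IrxB had no such run, and the 5 kb used here was set after the peaks had been seen. In the whole genome 268 chamber runs of 4 or more peaks held no AVC peak. Irx5 is the middle gene of the cluster in the order above, but its place relative to these peaks was not determined.

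Outside this middle part of IrxB the counts of the 2 tissues were closer, with chamber peaks still ahead. The first 500 kb held 8 AVC and 10 chamber peaks, an AVC share of 44.4% (21.5 to 69.2). The last 400 kb held 3 and 5, a share of 37.5% (8.52 to 75.5). Both intervals included the 57.8% of chromosome 8. The fullest bins of the AVC list were those from 94.1 Mb, with 3 AVC and 3 chamber peaks, and from 94.4 Mb, with 2 and 3. Outside the middle, the chamber peak of highest score without an AVC overlap was at 94491835 to 94492213, with a signal of 40 and a score of 4.46. The AVC peaks without overlap were weak. The strongest were at 94292343 to 94292702, with a signal of 34 and a score of 2.98, and at 94170102 to 94170847, which was the widest AVC peak of IrxB at 746 bp and had a signal of 33 and a score of 2.86. After these, peaks at 94112828 to 94112997 and 95141128 to 95141521 tied at a score of 2.62. On the chamber side the unshared IrxB peaks lay a median of 70.0 kb from the nearest AVC peak, against 4.21 kb for unshared chamber peaks of chromosome 8. That median includes the 7 chamber peaks of the middle stretch, which was picked for its lack of AVC peaks. It also reflects the sparser AVC peaks of IrxB, 9.17 per Mb against 35.2 on the chromosome. For unshared AVC peaks the distance to a chamber peak was 10.3 kb in IrxB and 10.3 kb on the chromosome.

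Peaks called in both tissues were a minority in IrxA, as in the whole lists. In IrxB they made up most of the peaks that scored at least 5, and 4 of these shared loci were under 300 bp wide in both lists. In IrxA 13 AVC peaks overlapped a chamber peak (22.0%, 12.3 to 34.7; 23.2% of the whole AVC list), and 13 chamber peaks overlapped an AVC peak (23.6%, 13.2 to 37.0; 31.6% of the whole chamber list). In IrxB 6 AVC peaks did so (54.5%, 23.4 to 83.3) and 6 chamber peaks (27.3%, 10.7 to 50.2). Both IrxA intervals included the percentage of their list. The IrxB interval for AVC peaks, from 11 peaks, began just above 23.2% and included the 24.2% of AVC peaks on chromosome 8, and that for chamber peaks included 31.6%. A score of 5 or more was reached by 6 AVC peaks of IrxA (10.2%) and 5 of IrxB (45.5%), against 9.95% of the AVC list, and by 8 chamber peaks of IrxA (14.5%) and 6 of IrxB (27.3%), against 18.1% of the chamber list.

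The strongest peaks of both clusters were narrow and stood at the same places in both lists. Scores of at least 10 occurred in 8 AVC and 7 chamber peaks, all of them shared; so were 98.1% and 92.1% of such peaks in the whole lists. In IrxB the highest was at 94995672 to 94995901, 230 bp wide in the AVC, with a signal of 464 in the AVC and 275 in the chambers and scores of 25.13 and 23.53. The next AVC scores there were 18.87 at 94173626 to 94173744, 18.23 at 94302980 to 94303186 and at 95018764 to 95019135, and 17.24 at 94445710 to 94445897. The chamber scores of these loci were 15.51, 13.91, 13.18 and 14.44. In IrxA the strongest was at 73391211 to 73391432, with a signal of 203 in the AVC and 119 in the chambers and scores of 17.95 and 17.29. It was followed by 73561568 to 73561697 (AVC score 14.74, chamber score 11.96), 73044881 to 73044947 (10.39 and 9.86) and 72690348 to 72690520 (5.99 and 3.77). Apart from the locus from 95018764, at 372 bp in the AVC and 391 bp in the chambers, these loci were under 300 bp wide in both lists.

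At these narrow loci the unscaled AVC signal was above the chamber signal in both clusters. Over the 4 loci of IrxB and the 2 of IrxA that scored at least 10 and were narrower than 300 bp in both lists, the AVC signal was 1.68 and 1.63 times the chamber signal in the median, against 1.70 over 1538 such loci of the series. With scores of at least 5 the locus from 73044881 joins the IrxA ones, and the median over its 3 loci was 1.55 (1.19 to 1.71), against 1.69 over 2083 loci of the series. No input library was used here, and what these narrow loci mark was not tested.

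Strong wider peaks mostly stood in 1 list. Among peaks at least 300 bp wide that scored at least 5, IrxA had 2 in the AVC and 4 in the chambers, and none of these 6 overlapped a peak of the other list. IrxB had 1 in the AVC and 2 in the chambers, of which the locus from 95018764 was shared and the peak at 94878429 was not. In the whole lists 65.2% of such AVC peaks and 63.7% of such chamber peaks were shared. The counts are small. The AVC pair lay in the bins from 72.9 and 73.0 Mb, and all 4 chamber peaks of IrxA in the bin from 73.4 Mb, 3 of them in the 12-peak run and the other at a score of 5.37 in the run after it.

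**Figure D5:**
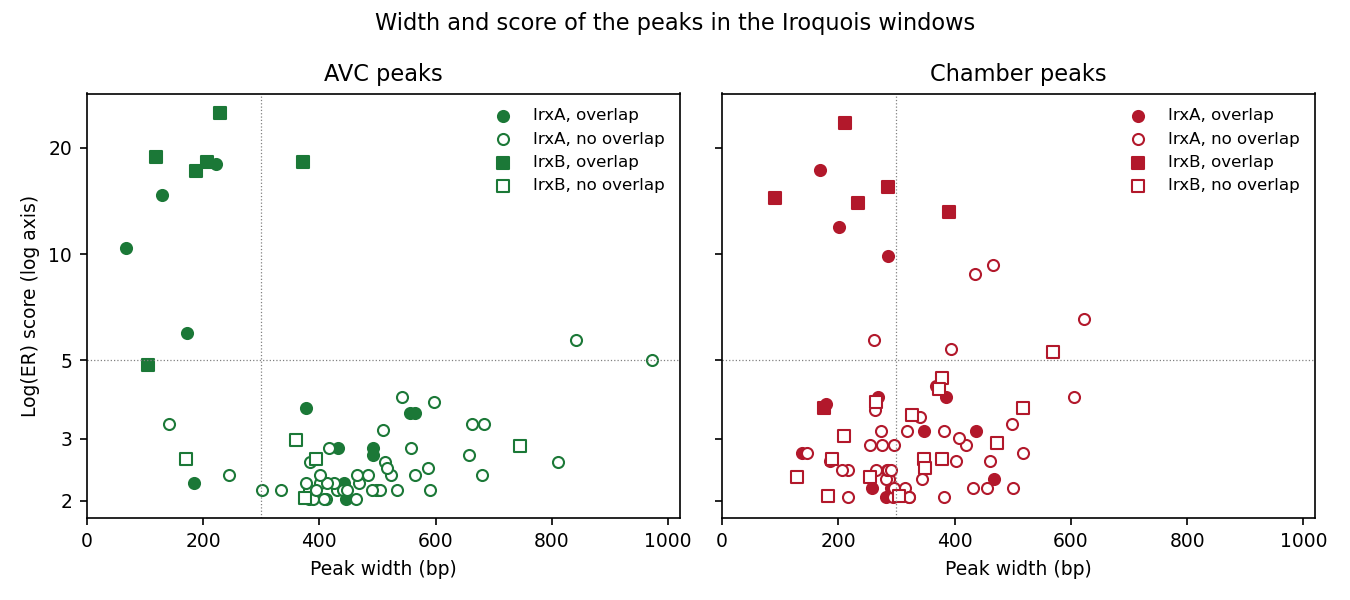
Points are the 147 peaks of both windows by width in bp and Log(ER) score on a log axis, AVC left and chambers right, circles for IrxA and squares for IrxB, filled where a peak of the other list overlaps; dotted lines mark 300 bp and a score of 5. Every point above a score of 10 is filled, and all but 2 of the points at the upper right (scoring at least 5, 300 bp or wider) are open.

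Scores under 3 made up 44 of the 59 AVC peaks and 33 of the 55 chamber peaks in IrxA, and 5 of 11 and 9 of 22 in IrxB. In the whole lists they made up 65.7% of AVC and 55.5% of chamber peaks. Shared AVC peaks of IrxA had a median score of 3.54 and unshared ones of 2.31, and for chamber peaks the medians were 3.16 and 2.59. In IrxB the medians were 18.2 and 2.62 for AVC peaks and 14.2 and 2.77 for chamber peaks. Of the unshared peaks of IrxA, 3 AVC and 5 chamber peaks had a peak of the other list within 1 kb, and in IrxB none did in either list. In the whole lists 12.6% of unshared AVC peaks and 23.3% of unshared chamber peaks did.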

How the data were processed

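H3K27ac ChIP-seq peak lists of 2 libraries, AVC and chambers, were used as deposited. Bowtie, SAMtools and the build mm9 are named, per the submitters' processing notes, with no role or version. Per the file headers, peaks were called per library with OccuPeak 1.3, by chromosome, with reads of 50 bp, a Log(ER) above 2 and modelled fragments of 60.5 bp (AVC) or 68 bp (chambers). The deposited score is Log(ER), set within a chromosome, its log base not stated. The deposited signal is a whole number per peak that the headers do not name, unscaled between lists. Depth and pooling are not given in the sources used here.

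Members were peaks with midpoints in the windows; shared means an overlap of at least 1 bp. Bins were 100 kb. Windows counted for empty bins ran from the first to the last peaked window of each chromosome. Runs joined peaks of a list at most 5 kb apart. The peaks named are, per cluster and list, the 5 of highest score, the 3 of highest score without overlap and the widest. Bins named are those with the most peaks and the largest excess of either list, and others chosen on sight. Windows, runs, motifs and members were chosen with earlier results of these data known. Overlap and bin counting were tested on simulated data, and overlaps were checked with bedtools 2.31.1. The planned comparison with other heart genes was not run, since no mm9 annotation was used. Positions are 1-based. Tools were scipy 1.17.1, pandas 2.3.3, numpy 2.4.6 and matplotlib 3.10.9 under Python 3.11.15.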

Additional observations from a re-analysis of the deposited data

How the results depend on the processing

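Of 51 alternative values, 33 stayed within the interval of the value reported, or within 1.5 times of a count, and 18 did not. The AVC share of IrxA peaks was 40.5% at scores of at least 3, 42.1% with equal peak numbers and 65.8% at widths of at least 300 bp. Which list led there thus depended on the peaks kept. The share over windows of the genome with at least 20 peaks moved too, from 50.2% to 45.2%, 44.8% and 57.3% at the same settings. In IrxB the AVC share stayed under 50% throughout, though the share over the genome was itself under 50% at some of these settings. At scores of at least 5 the AVC share was 45.5% in IrxB (16.7 to 76.6) and 42.9% in IrxA (17.7 to 71.1). At that score the whole lists held 8716 AVC and 12137 chamber peaks, so AVC peaks were the minority there too. In IrxA the shared percentage was 50% (AVC) and 37.5% (chambers) at scores of at least 5, and 5.77% and 11.1% at 300 bp. In IrxB it was 100% of AVC peaks at scores of at least 3 and at least 5, with 83.3% of chamber peaks at 5, and 20% and 9.09% at 300 bp. These lists hold fewer peaks by construction. Membership by any overlap with a window changed no member. The number of Irx bins set apart was 0 with shifted bins, 0 at widths from 300 bp and 0 for scores from 3 up, where no Irx bin reached 20 peaks and none could be. The longest chamber run without an AVC peak in IrxA was 6 at a spacing of 2 kb and 0 at 10 kb, and in IrxB 0 at 2 kb. With peaks of a list within 1 kb merged, 57 of 99 IrxA peaks (57.6%) and 11 of 31 IrxB peaks (35.5%) were AVC peaks. The counts per bin were not repeated on merged peaks, so how far close-set chamber calls shape them was not tested. Run spacing and the merging of peaks within 1 kb were chosen after seeing the data. No paired analysis was possible because there was a single sample per tissue. Unknown depth limits what a missing peak shows.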

Other observations

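Just outside the windows the counts of the 2 lists were close, but too small to tell equal shares from unequal ones. In the 200 kb before IrxA there were 2 AVC and 2 chamber peaks (AVC share 50%, 6.76 to 93.2). In the 200 kb after it there were 8 and 9 (47.1%, 23.0 to 72.2). Before IrxB there were 7 AVC and 8 chamber peaks (46.7%, 21.3 to 73.4), and after it 2 and 1 (66.7%, 9.43 to 99.2). In the 200 kb after IrxA, 2 AVC peaks and 1 chamber peak were at least 300 bp wide and scored at least 5.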
